A study of Mus musculus with 18 samples.

Results

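Ntrk2, Ntrk3, Bdnf and Ngfr encode 1 neurotrophin (Bdnf) and 3 neurotrophin receptors, and they were followed with every probe that the array carries for them. The 4 genes were chosen by earlier results of these same arrays, in which Ntrk2 stood near the top of the response to low oxygen, so the hypoxia values of the 4 genes are given as a description and carry no test. Probes were picked by their annotated gene symbol, which gave 4 of 16593 genes and 11 of 25697 probes, namely 3 for Ntrk2, 4 for Ntrk3, 3 for Bdnf and 1 for Ngfr. A probe counted as detected on an array when its detection p-value, a comparison with negative control beads, was under 0.05. Of the 11 probes, 9 were detected on at least 3 of 12 lung arrays and 4 on at least 3 of 6 cell arrays, and only these were tested.

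Neurotrophins are secreted growth factors best known for keeping neurons alive and shaping their connections. Brain-derived neurotrophic factor, the product of Bdnf, binds the receptor tyrosine kinase TrkB, the product of Ntrk2, and neurotrophin-3 prefers TrkC, the product of Ntrk3. All neurotrophins, and above all their uncleaved precursors, also bind p75, the product of Ngfr, a receptor of the tumour necrosis factor receptor family. TrkB is made both with its kinase domain and in truncated forms that lack it. In lung these genes are known from the airway nerves, airway smooth muscle and other resident cells.

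The study asked how interleukin-4 (IL-4), a cytokine of type 2 immunity, bears on the lung vessels' inflammatory response to low oxygen. Total lung RNA came from male C57BL/6 mice of 8 to 12 weeks, 1 animal per array and 3 per group. The groups were IL-4 knockout mice in 10% oxygen for 4 days (KO hypoxia), wild-type mice in 10% oxygen for 4 days (WT hypoxia), IL-4 knockout mice in room air (KO normoxia) and wild-type mice in room air (WT normoxia). Cultured pulmonary microvascular endothelial cells (PMVEC) of wild-type female C57BL/6 mice of 4 to 6 weeks received recombinant IL-4 at 50 ng/mL (rIL-4) or vehicle for 24 h, 3 samples each, and whether these came from separate cultures is not stated, so the spread between them may be technical. The labels do not describe the knockout allele. Whole lung mixes many cell types, so fewer cells of a type and less RNA per cell cannot be told apart.

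The share of probes detected lay between 60.2% and 64.2% on the lung arrays and between 45.1% and 46.9% on the cell arrays. The Il4 probe read 5.37 to 5.86 in KO hypoxia, against 7.25 to 7.64 in WT hypoxia, and it read 4.97 to 5.72 in KO normoxia, against 7.67 to 8.26 in WT normoxia (normalized log2 signal). It was still detected on 2 of 3 arrays in each knockout group, and no source used here says whether it lies in the deleted part. The lung markers Sftpc, Sftpa1, Scgb1a1 and Ager were detected on 12 of 12 lung arrays. In the cells labelled PMVEC, the endothelial markers Cdh5, Tie1 and Vwf were detected on 0 of 6 arrays, Pecam1 on 0 of 6 by 1 probe and on 1 of 6 by another, and Kdr on 5 of 6 at an unnormalized signal of only 61.1 to 70.1. Acta2 and Col1a1, which smooth muscle cells and fibroblasts express strongly, were detected on 6 of 6 of these arrays, while the leukocyte marker Ptprc and the epithelial marker Sftpc were detected on 0 of 6. Of genes with a probe, 1 of 4 general leukocyte genes (Coro1a) and 0 of 3 general epithelial genes passed the detection filter. The filter was also passed by 1 of 7 alveolar type 2 genes (Abca3) and 3 of 6 alveolar type 1 genes (Aqp5, Pdpn and Cav1). Each of these named genes was detected on 6 of 6 arrays. Of the other endothelial genes, Flt1 averaged 7.24 with rIL-4 and 6.66 with vehicle and Egfl7 7.58 and 7.53 (normalized log2 signal), both detected on 6 of 6 arrays, and Plvap was detected on 5 of 6. Tek, Erg, Esam and Robo4 did not pass the detection filter in these cells. Of the endothelial genes with a probe, 3 of 10 general, 0 of 7 aerocyte capillary, 3 of 6 general capillary and 4 of 9 vein and artery genes passed it. Most endothelial markers thus did not bear out the label, and the cells are called here by their label only.

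Ntrk2 has 1 promoter in the RefSeq promoter table of build GRCm38.p6, Bdnf has 7 and Ngfr has 1, so 3 of the 4 genes matched, all but Ntrk3. The table gives 250 bases before to 50 after a transcription start. The Ntrk2 promoter is printed because Ntrk2 carries the main finding, and the Bdnf promoter is the one of its 7 with the most matches to the letters ACGTG or GCGTG, the core at which hypoxia-inducible factors are known to bind. Capitals mark these matches on either strand, CACGT and CACGC being the same letters read from the other strand, and both sequences run 5′ to 3′ on the plus strand.
Ntrk2, chr13:58806319-58806618: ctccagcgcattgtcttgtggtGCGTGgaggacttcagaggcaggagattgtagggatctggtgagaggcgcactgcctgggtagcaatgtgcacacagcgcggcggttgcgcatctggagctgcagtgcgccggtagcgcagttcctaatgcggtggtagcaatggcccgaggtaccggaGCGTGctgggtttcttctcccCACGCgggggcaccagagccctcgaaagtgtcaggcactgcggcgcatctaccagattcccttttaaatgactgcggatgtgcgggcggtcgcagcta
Bdnf, chr2:109692186-109692485: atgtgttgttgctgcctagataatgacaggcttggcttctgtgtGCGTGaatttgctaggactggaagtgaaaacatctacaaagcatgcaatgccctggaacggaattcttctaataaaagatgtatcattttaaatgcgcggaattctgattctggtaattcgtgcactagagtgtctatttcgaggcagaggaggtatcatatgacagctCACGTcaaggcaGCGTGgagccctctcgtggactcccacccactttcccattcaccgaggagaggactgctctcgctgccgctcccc
The Ntrk2 window held GCGTG 2 times on the strand shown and 1 time on the other, and held no ACGTG. The Bdnf window held GCGTG 2 times on the strand shown and ACGTG 1 time on the other. Of all 32851 promoters in the table, 19.6% held ACGTG and 32.4% held GCGTG at least 1 time on either strand, so holding these letters is not rare. The share of promoters with as many matches as these windows was not computed, so whether their number sets either window apart was not tested. The other Bdnf promoters held fewer matches, and some held none. No source used here gives the place of the array probes within the transcripts, and transcript forms of a gene were not told apart.

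Ntrk2 was much higher in hypoxic than in room-air lungs of both genotypes. All levels that follow are normalized log2 signals. The probe ILMN_2705460 read 11.19, 11.14 and 10.97 in KO hypoxia and 11.11, 11.02 and 11.32 in WT hypoxia. It read 7.57, 6.80 and 7.40 in KO normoxia and 6.69, 7.46 and 7.87 in WT normoxia. Every hypoxic array lay above every room-air array, and within an oxygen level the genotypes overlapped. Hypoxic and room-air arrays of a genotype lay apart, in either direction, for 25.8% of all tested probes in knockout and 27.9% in wild-type lung. The log2 difference was 3.85 in knockout lung (SE 0.26, 14.4-fold) and 3.81 in wild-type lung (SE 0.26, 14.02-fold).

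A second Ntrk2 probe showed the same pattern. ILMN_3138904 read 10.64, 10.83 and 10.69 in KO hypoxia and 10.84, 10.86 and 10.54 in WT hypoxia, while it read 7.64, 6.88 and 7.44 in KO normoxia and 6.76, 7.60 and 7.33 in WT normoxia. Again no hypoxic array overlapped a room-air array. Its log2 difference was 3.40 in knockout lung (10.6-fold) and 3.52 in wild-type lung (11.5-fold), each with an SE of 0.22. Among 17112 probes ordered by log2 difference, the 2 probes stood at places 1 and 4 from the top in knockout lung and at places 3 and 7 in wild-type lung. Both were detected on 12 of 12 lung arrays, so Ntrk2 transcripts were measured in room air too.

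**Figure D1:**
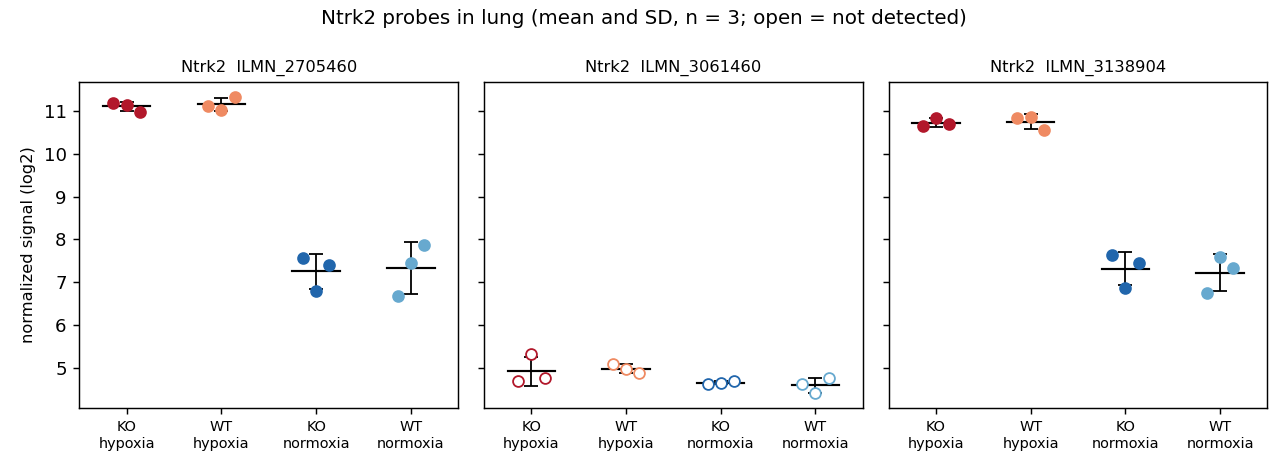
Normalized log2 signal of the 3 Ntrk2 probes on each lung array by group, with group mean and SD (n = 3); open points mark arrays on which the probe was not detected. ILMN_2705460 and ILMN_3138904 lie at 10.54 or above on every hypoxic array and at 7.87 or below on every room-air array, and ILMN_3061460 was detected on none.

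The third Ntrk2 probe, ILMN_3061460, was detected on 0 of 12 lung arrays and 0 of 6 cell arrays. Its values ran 4.69 to 5.32 in KO hypoxia and 4.90 to 5.10 in WT hypoxia, against 4.64 to 4.71 in KO normoxia and 4.42 to 4.76 in WT normoxia. It is annotated to the RefSeq record NM_001025074, as is ILMN_3138904, whereas ILMN_2705460 is annotated to NM_008745. With no array above background it gives only an upper limit and no fold.

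The room-air arrays differed more among themselves than the hypoxic ones. For ILMN_2705460 the SD was 0.11 in KO hypoxia and 0.15 in WT hypoxia, against 0.41 in KO normoxia and 0.60 in WT normoxia. For ILMN_3138904 the SD was 0.10 in KO hypoxia and 0.18 in WT hypoxia, against 0.39 in KO normoxia and 0.43 in WT normoxia. The lowest room-air arrays were the same for both probes, namely replicate 1 of WT normoxia and replicate 2 of KO normoxia. In unnormalized signal ILMN_2705460 ran from 2120 to 2457 in KO hypoxia and from 2179 to 2783 in WT hypoxia, against 179 to 231 in KO normoxia and 167 to 298 in WT normoxia.

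Loss of IL-4 was not accompanied by a detectable difference in Ntrk2. This comparison is not the one that chose the genes, although it uses the same arrays, and it was tested with limma. In room air ILMN_2705460 differed by -0.08 log2 between KO and WT (95% interval -0.65 to 0.48, limma adjusted p = 0.891), and ILMN_3138904 by 0.09 (-0.39 to 0.58, adjusted p = 0.855). Under hypoxia the differences were -0.05 (-0.61 to 0.52, adjusted p = 0.997) and -0.03 (-0.51 to 0.45, adjusted p = 0.997). The hypoxia differences of the 2 genotypes differed from each other by 0.04 (-0.77 to 0.84, adjusted p = 0.988) for ILMN_2705460 and by -0.12 (-0.80 to 0.56, adjusted p = 0.937) for ILMN_3138904. Across both probes the 95% intervals of this last difference reach from -0.80 to 0.84 log2, with 3 arrays a group. A difference between the genotypes within these bounds is thus not excluded. The intervals are not adjusted for the number of probes tested, so they are no limit of detection.

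Bdnf, which encodes the ligand of TrkB, went the other way from its receptor. The probe ILMN_3105417 read 9.78, 9.63 and 9.92 in KO hypoxia, against 10.49, 10.47 and 10.53 in KO normoxia. It read 9.61, 9.68 and 9.65 in WT hypoxia, against 9.94, 10.00 and 10.16 in WT normoxia. In each genotype every hypoxic array was below every room-air array. Such a separation, in either direction, was found for 25.8% of all tested probes in knockout and 27.9% in wild-type lung. The log2 difference was -0.72 in knockout lung (SE 0.11, 1.65-fold lower) and -0.39 in wild-type lung (SE 0.11, 1.31-fold lower).

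A second Bdnf probe, ILMN_1246842, was also lower under hypoxia. It read 7.98, 7.77 and 7.97 in KO hypoxia, against 8.29, 8.52 and 8.39 in KO normoxia. It read 7.55, 7.39 and 7.78 in WT hypoxia, against 7.87, 8.00 and 8.25 in WT normoxia. No hypoxic array overlapped a room-air array of its genotype, beside 25.8% of all tested probes in knockout and 27.9% in wild-type lung. The log2 difference was -0.49 in knockout lung and -0.47 in wild-type lung (SE 0.14 each). The third Bdnf probe, ILMN_1214228, was detected on 0 of 12 lung arrays.

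**Figure D2:**
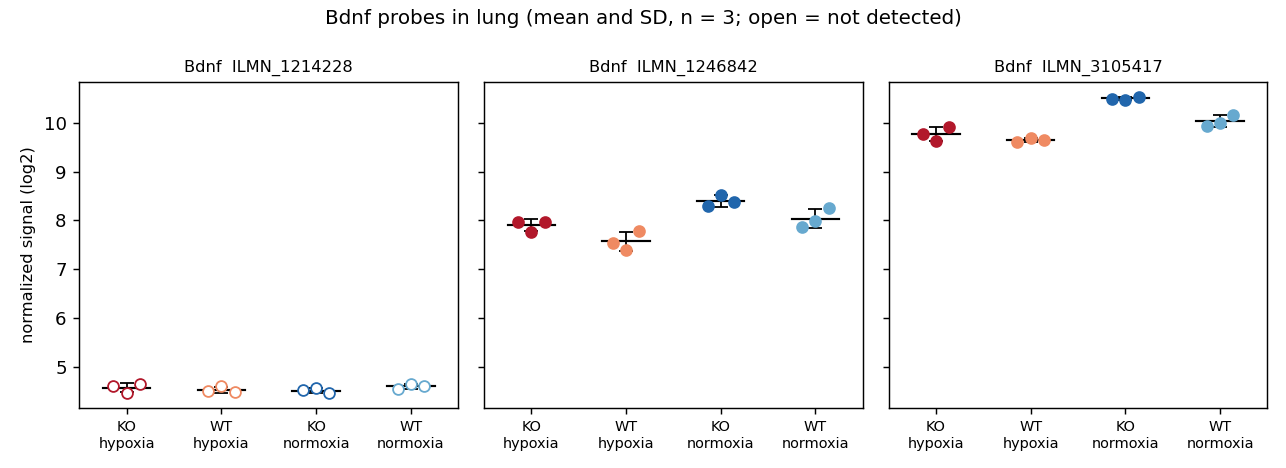
Normalized log2 signal of the 3 Bdnf probes on each lung array by group, with group mean and SD (n = 3); open points mark arrays on which the probe was not detected. In ILMN_3105417 the KO normoxia arrays lie at 10.47 to 10.53, above all other arrays, and the hypoxic arrays of both genotypes lie at 9.61 to 9.92.

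Bdnf was also higher in knockout than in wild-type lung in room air. ILMN_3105417 averaged 10.50 ± 0.03 in KO normoxia and 10.04 ± 0.11 in WT normoxia (SD, n = 3 each), a log2 difference of 0.46 (SE 0.11, 95% interval 0.22 to 0.71, 1.38-fold) with a limma adjusted p of 0.0344, and it was higher in 3 of 3 knockout arrays. ILMN_1246842 averaged 8.40 ± 0.12 in KO normoxia and 8.04 ± 0.19 in WT normoxia, and its difference of 0.36 did not pass (limma adjusted p = 0.168). For both probes the arrays of the 2 groups did not overlap, which held for 23.1% of all tested probes in this comparison. Of 9 member probes tested in this comparison 1 passed, beside 5.59% of all probes. Of the 9, 3 had an unadjusted p under 0.05, beside 3556 of all 17112 probes.

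The Bdnf call in room air was a narrow one. The limma adjusted p of ILMN_3105417 was 0.120 without replicate 1 and 0.108 without replicate 2 of WT normoxia, 0.0511 without replicate 1 of WT hypoxia, and 0.0921, 0.0928 and 0.0675 without replicates 1, 2 and 3 of KO normoxia. It was 0.0812 in the authors' log2 table. The KO normoxia lungs also carried far more liver transcripts: 15 of 20 measured liver genes rose against WT normoxia, with a mean log2 level of 10.85 to 12.90 in KO normoxia and 8.64 to 9.45 in WT normoxia. T and B cell markers rose in 6 of 6 measured genes, their summed signal being 3854 to 4769 in KO normoxia and 1701 to 2392 in WT normoxia. With the liver level as a covariate the Bdnf difference was 0.56 and the limma adjusted p 0.340. Only 2 of all probes passed in that setting, against 956 without the covariate. The part of the lymphocyte markers in the Bdnf difference was not tested.

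Under hypoxia the genotypes did not differ detectably in Bdnf. ILMN_3105417 averaged 9.78 ± 0.14 in KO hypoxia and 9.65 ± 0.04 in WT hypoxia, a log2 difference of 0.13 (95% interval -0.12 to 0.37, limma adjusted p = 0.986). For ILMN_1246842 the averages were 7.91 ± 0.12 in KO hypoxia and 7.57 ± 0.20 in WT hypoxia, with a difference of 0.34 (0.03 to 0.64, adjusted p = 0.633). The hypoxia differences of the genotypes differed by -0.33 for ILMN_3105417 (-0.68 to 0.01, adjusted p = 0.460) and by -0.02 for ILMN_1246842 (-0.45 to 0.41, adjusted p = 0.987). By group mean, ILMN_3105417 ran from KO normoxia at the top through WT normoxia and KO hypoxia to WT hypoxia, and only the last 2 neighbours in that order overlapped. In ILMN_1246842 the order was the same, with WT normoxia and KO hypoxia overlapping, as did KO hypoxia and WT hypoxia.

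Ntrk3, the neurotrophin-3 receptor, was measured on every lung array by 1 of its 4 probes. ILMN_2632337 read 6.49, 6.93 and 6.22 in KO hypoxia and 6.66, 6.40 and 6.97 in WT hypoxia, against 6.44, 6.29 and 6.64 in KO normoxia and 5.91, 5.64 and 6.84 in WT normoxia. The 4 groups overlapped. The hypoxia difference was 0.09 log2 in knockout lung and 0.54 in wild-type lung (SE 0.28 each), where replicate 3 of WT normoxia lay within the range of the hypoxic arrays and the difference was 0.90 without it. Its genotype difference was 0.32 in room air (95% interval -0.28 to 0.92, limma adjusted p = 0.556) and -0.13 under hypoxia (-0.73 to 0.47, adjusted p = 0.997), and the hypoxia differences differed by -0.45 (-1.30 to 0.40, adjusted p = 0.732).

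The other 3 Ntrk3 probes were near background. ILMN_1253641, ILMN_2599036 and ILMN_2675199 were detected on 3, 4 and 5 of 12 lung arrays, and their group means ran from 4.85 to 5.48. ILMN_2599036 was detected on 2 of 3 WT hypoxia arrays and on 0 of 3 WT normoxia arrays, with means of 5.40 and 4.85, but the lowest signal among detected probes in WT normoxia averaged 5.45, so no fold is given. None of the 3 passed a genotype comparison in limma (adjusted p of 0.448 to 0.997), nor did any at an unadjusted p under 0.05.

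Ngfr, the p75 receptor, was dim. Its probe ILMN_2851288 was detected on 9 of 12 lung arrays and read 5.47, 6.17 and 5.32 in KO hypoxia and 5.53, 5.81 and 5.49 in WT hypoxia, against 5.13, 5.48 and 5.15 in KO normoxia and 5.67, 5.66 and 5.71 in WT normoxia. It was detected on 1 of 3 KO normoxia arrays and on 3 of 3 WT normoxia arrays. Every KO normoxia array read below every WT normoxia array, with a log2 difference of -0.43 (95% interval -0.85 to -0.002) that rests on values mostly not above background in KO normoxia and did not pass (limma adjusted p = 0.239). In this comparison the groups lay apart for 23.1% of all tested probes. The hypoxia difference was 0.40 in knockout lung and -0.07 in wild-type lung (SE 0.20 each), with overlapping groups, and these 2 differed by 0.47 (adjusted p = 0.563).

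**Figure D3:**
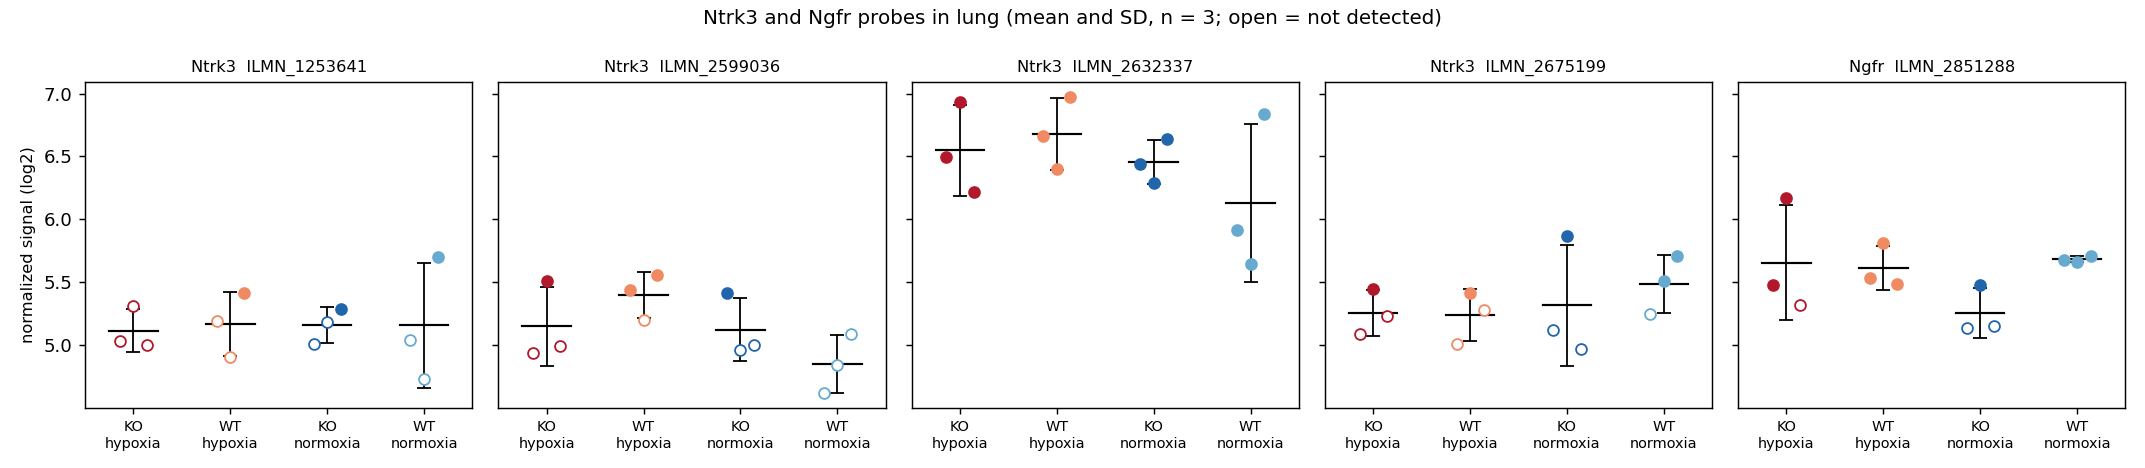
Normalized log2 signal of the 4 Ntrk3 probes and the Ngfr probe on each lung array by group, with group mean and SD (n = 3); open points mark arrays on which the probe was not detected. Only ILMN_2632337 was detected on 12 of 12 arrays, and its 4 groups overlap.

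Counted over the 4 genes, 3 of 9 probes (ILMN_2705460, ILMN_3138904 and Bdnf ILMN_3105417) were under the limma threshold for hypoxia in knockout lung, where 7.36% of all probes were, and the same 3 in wild-type lung, where 9.90% were. Under the alternatives, Bdnf ILMN_3105417 was under the threshold in 18 of 19 for knockout lung and in 5 of 19 for wild-type lung. These counts come from the comparison that chose the genes and nothing is read from them. Between genotypes under hypoxia 0 of 9 passed in limma, beside 0.0409% of all probes, and 0 with a trended robust variance. An unadjusted p under 0.05 was reached by 1 of 9 (ILMN_1246842), beside 1210 of all 17112 probes. For the difference of the hypoxia changes 0 of 9 passed, beside 0.0175% of all probes, and 0 with the trended robust variance. An unadjusted p under 0.05 was reached by 0 of 9, beside 1934 of all 17112 probes.

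In the cells labelled PMVEC, Ntrk2 was not detected. Its 3 probes were above background on 0 of 6 arrays, with values of 4.34 to 4.54 with rIL-4 and 4.30 to 4.70 with vehicle, so the effect of rIL-4 on Ntrk2 could not be measured in these cells. Bdnf was measured on 6 of 6 arrays by all 3 probes. ILMN_3105417 read 7.79, 8.15 and 8.42 with rIL-4, against 8.53, 8.73 and 8.53 with vehicle. All rIL-4 samples lay below all vehicle samples, and the log2 difference was -0.47 (SE 0.15, 95% interval -0.81 to -0.14, 1.39-fold lower), which did not pass (limma adjusted p = 0.207). Such a separation, in either direction, was found for 16.2% of all tested probes in these cells.

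The other Bdnf probes overlapped between treatments. ILMN_1246842 averaged 5.25 ± 0.35 with rIL-4 and 5.27 ± 0.23 with vehicle, and ILMN_1214228 averaged 5.39 ± 0.20 with rIL-4 and 5.52 ± 0.07 with vehicle (SD, n = 3 each; limma adjusted p = 0.986 and 0.807). Of 4 member probes tested 0 passed in limma, beside 1.36% of all probes, and 0 passed with the trended robust variance. An unadjusted p under 0.05 was reached by 1 of the 4, beside 1288 of all 11947 probes. The authors' log2 table holds the PMVEC signals of ILMN_3105417 under ILMN_1246842 and the reverse, and it likewise exchanges 2 Ntrk2 probes, so which Bdnf probe is the brighter one in these cells rests on the non-normalized table. Ntrk3 was detected by ILMN_2675199 on 2 of 3 rIL-4 arrays and 1 of 3 vehicle arrays, and Ngfr on 0 of 3 rIL-4 arrays and 1 of 3 vehicle arrays.

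**Figure D4:**
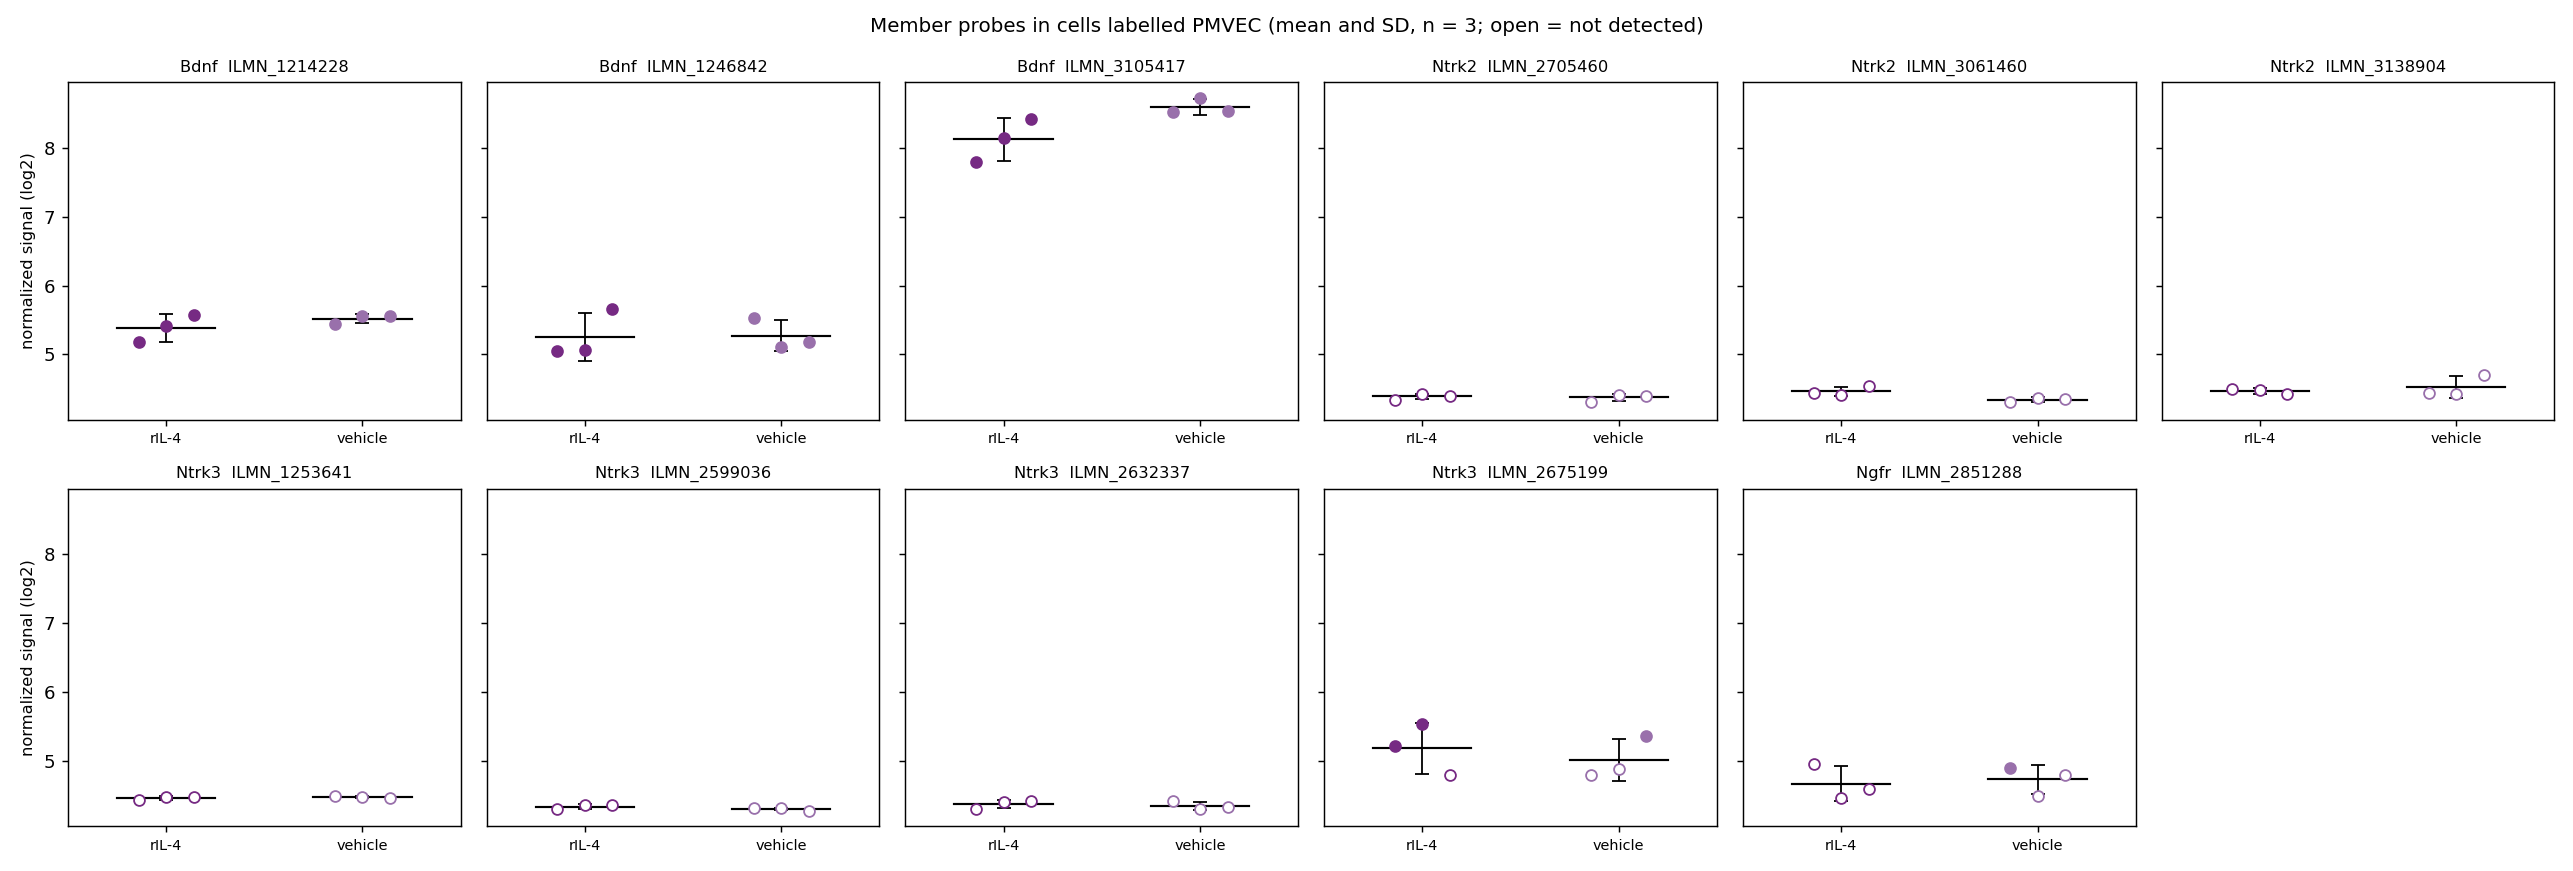
Normalized log2 signal of the 11 probes in cells labelled PMVEC with rIL-4 (left in each panel) and vehicle (right), with mean and SD (n = 3); open points mark arrays on which the probe was not detected. The 3 Ntrk2 probes were detected on no array, and Bdnf ILMN_3105417 lies at 7.79 to 8.42 with rIL-4 and 8.53 to 8.73 with vehicle.

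Among the other receptors of the family, Sorcs2, a sortilin-related receptor that binds neurotrophin precursors together with p75, rose in hypoxic lung. Genes outside the 4 were read by their probe of highest mean, of which 8.16% passed for hypoxia in knockout lung and 10.8% in wild-type lung. The gene lists used here and below, cell markers included, were chosen with earlier results of these data known. Their adjusted p-values and counts are thus no independent support. Sorcs2 averaged 7.12 ± 0.12 in KO hypoxia and 6.54 ± 0.17 in KO normoxia (log2 change 0.59, limma adjusted p = 0.0331), and 7.04 ± 0.18 in WT hypoxia and 6.43 ± 0.23 in WT normoxia (0.61, adjusted p = 0.0233). Leaving out single arrays raised its adjusted p to at most 0.131 in knockout and 0.0917 in wild-type lung and lost the call for 5 and 4 of the arrays, namely each KO array but replicate 3 of KO normoxia, and replicates 1 and 3 of WT normoxia and 1 and 2 of WT hypoxia. Sort1, which encodes sortilin, the co-receptor of p75 for neurotrophin precursors, changed by 0.03 in knockout and 0.05 in wild-type lung and did not pass (adjusted p = 0.942 and 0.887). Sorl1, a related sorting receptor, changed by -0.13 and -0.33 and Sorcs1 by -0.14 and -0.26, and neither passed. The neurotrophin-4 gene, annotated as Ntf5, and Sorcs3 did not pass the detection filter.

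Genes that process neurotrophins or p75 changed in few cases. Of 10 measured, 2 rose and 0 fell in knockout lung, and 1 rose and 1 fell in wild-type lung. Mmp3, a stromelysin that cleaves neurotrophin precursors, rose by 0.60 log2 in knockout lung (limma adjusted p = 0.0394), and so did Adam17, the sheddase of p75, by 0.48 (adjusted p = 0.0380). In wild-type lung Plau, the urokinase-type plasminogen activator, rose by 0.74 (adjusted p = 0.0422), while Mmp9, a gelatinase that neutrophils carry, fell by 0.99 (adjusted p = 0.0386). Neutrophil markers, a list that holds Mmp9 too, fell in 5 of 6 genes in wild-type lung, with sums of 8689 to 9460 in WT hypoxia and 10284 to 79813 in WT normoxia, and their part in the Mmp9 change was not tested. Single arrays decided these 4 calls. That of Mmp3 was lost without any 1 KO array or replicate 2 or 3 of WT hypoxia (adjusted p of up to 0.133), and that of Adam17 without any KO array but replicate 3 of KO normoxia (up to 0.153). That of Plau was lost without any WT array but replicate 2 of WT hypoxia, or without replicate 2 of either KO group (up to 0.158), and that of Mmp9 without any WT array but replicate 3 of WT normoxia, or without replicate 2 of KO normoxia or 3 of KO hypoxia (up to 0.144). Of the 10 genes, 1 differed between the genotypes in room air, where 6.28% of all genes passed. It was Mmp3, at 10.35 ± 0.12 in KO normoxia and 11.56 ± 0.34 in WT normoxia (log2 difference -1.20, adjusted p = 0.00178).

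Few genes of the signalling path inside the cell moved. Of 21 measured adaptors and kinases that act below Trk receptors, 0 passed in knockout lung and 1 fell in wild-type lung, with list medians of 0.14 and -0.03 log2 beside 0.03 and -0.0006 over all genes. That gene was Irs2, an insulin receptor substrate, which averaged 8.70 ± 0.14 in WT hypoxia and 9.40 ± 0.08 in WT normoxia (log2 change -0.70, limma adjusted p = 0.00423). It was also lower in KO normoxia than in WT normoxia, by 0.52 log2 (adjusted p = 0.0349), a call lost without replicate 1 or 2 of WT normoxia, 1 of WT hypoxia, 1 or 2 of KO normoxia or 2 of KO hypoxia (adjusted p of up to 0.133). Of 6 measured partners of p75, 0 passed in either genotype.

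Transcripts that Trk signalling is known to induce in neurons went down where they changed. Of 9 measured, 3 fell and 0 rose in each genotype, in a list chosen with earlier results of these data known. Fos, an immediate early transcription factor, averaged 9.61 ± 0.07 in KO hypoxia and 10.67 ± 0.31 in KO normoxia (log2 change -1.06, limma adjusted p = 0.0165), and 10.13 ± 0.32 in WT hypoxia and 11.15 ± 0.49 in WT normoxia (-1.02, adjusted p = 0.0165). Egr2, another early response factor, fell by 0.74 in knockout lung (adjusted p = 0.0323) and by 0.79 in wild-type lung (adjusted p = 0.0191). Egr1 fell by 1.34 in knockout lung (adjusted p = 0.00127) and Etv5, a transcription factor of the receptor tyrosine kinase response, by 0.59 in wild-type lung (adjusted p = 0.0346). Egr1 kept its call without each single array. The Fos call was lost in knockout lung without replicate 1 of KO normoxia or 1 or 3 of KO hypoxia (adjusted p of up to 0.0742), and in wild-type lung without replicate 1 of WT normoxia or 1 or 2 of WT hypoxia (up to 0.0721). The Egr2 call was lost without replicate 3 of KO normoxia or any KO hypoxia array (up to 0.0970), and without replicate 1 or 2 of WT hypoxia (up to 0.0752). The Etv5 call was lost without replicate 2 or 3 of either WT group (up to 0.116). A covariate for the liver level removed the calls of Sorcs2, Mmp3, Adam17, Fos, Egr1 and Egr2 in knockout lung, of Plau and Mmp9 in wild-type lung and of Mmp3 and Irs2 between genotypes in room air. The liver level was 10.85 to 12.90 in KO normoxia and at most 9.94 in the other groups, so it nearly coincides with that group. With it 156 of all probes passed for hypoxia in knockout lung (1260 without) and 2 between genotypes in room air (956 without). A lost call there is thus not particular to these genes. The transcripts that Trk signalling induces respond to many signals besides Trk. Of 5 measured genes of other neurotrophic factor systems 0 passed in lung.

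In the cultured cells 8 genes of this list were measured, not all of them the ones measured in lung. Of these 8, 2 rose with rIL-4 and 0 fell, where 1.46% of all genes passed: Fos averaged 7.77 ± 0.29 with rIL-4 and 5.96 ± 0.14 with vehicle (log2 change 1.81, limma adjusted p = 6.06e-05), and Egr1 rose by 0.65 (adjusted p = 0.0181). Sorl1 rose by 0.70 (adjusted p = 0.0428) and Artn, which encodes the neurotrophic factor artemin, by 0.63 (adjusted p = 0.0255). The Fos call held without each array. The calls of the other 3 were lost without any vehicle array, that of Egr1 also without replicate 3 of rIL-4 (adjusted p of up to 0.0904), and those of Sorl1 and Artn also without replicate 1 or 2 of rIL-4 (up to 0.184 and 0.131). In the authors' log2 table the Artn change was 0.11 (limma adjusted p = 0.545). That table differs under 7582 probe names in the PMVEC arrays, and whether the Artn probe is among them was not looked up. Sort1 and Sorcs1 changed by -0.01 and 0.09 and did not pass. The lung and cell responses were not tested against each other.

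Markers of several resident cells moved in the same direction as Ntrk2 in hypoxic lung. Pericyte markers rose in 2 of 6 measured genes in both genotypes, with a summed linear signal of 3656 to 4073 in KO hypoxia and 3301 to 4078 in WT hypoxia, against 1740 to 2561 in KO normoxia and 2268 to 2437 in WT normoxia. Their leading genes were Higd1b (log2 change 1.47 in knockout and 1.31 in wild-type lung) and Notch3 (0.97 and 0.86). Smooth muscle markers rose in 3 of 7 genes in both genotypes, with sums of 20199 to 21610 in KO hypoxia and 25228 to 26296 in WT hypoxia, against 11941 to 14635 in KO normoxia and 14944 to 18105 in WT normoxia. Fibroblast markers rose in 3 of 8 genes in knockout and 4 of 8 in wild-type lung, led by the collagen gene Col1a1 (2.13 and 2.44), and sums were 57822 to 66542 in KO hypoxia and 80496 to 92306 in WT hypoxia, against 36523 to 38472 in KO normoxia and 39645 to 49668 in WT normoxia. Monocyte and macrophage markers rose in 3 of 7 genes in knockout and 5 of 7 in wild-type lung, with sums of 6066 to 6805 in KO hypoxia and 7890 to 9411 in WT hypoxia, against 4591 to 4997 in KO normoxia and 5267 to 5475 in WT normoxia. Mesothelial markers rose in 1 of 6 genes in knockout and 2 of 6 in wild-type lung, with list medians of -0.02 and 0.31 log2. Their sums were 8861 to 9990 in KO hypoxia and 7184 to 7800 in KO normoxia. In wild-type lung the mesothelial sums were 8387 to 10455 under hypoxia and 6468 to 6865 in room air. A covariate for the liver level removed the calls of Higd1b, Notch3, Acta2, Tagln, Col3a1 and C1qb in knockout lung, and that of Col1a1 held. With this covariate 156 of all probes passed there, against 1260 without it. The part of these cell types in the Ntrk2 difference was not tested.

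Markers of nerve cells gave a divided picture. Of the Schwann cell list 3 of 6 genes with a probe were measured and 0 passed, and the sums overlapped at 18907 to 20940 in KO hypoxia and 17597 to 20743 in WT hypoxia, against 19324 to 21142 in KO normoxia and 18665 to 19385 in WT normoxia. Of the neuron and neuroendocrine list 4 of 10 were measured, and Snap25, Syt1, Prph, Elavl4, Th and Chga did not pass the detection filter. Gap43, a growth cone protein, was the 1 gene that passed, with 11.35 ± 0.09 in KO hypoxia and 9.84 ± 0.08 in KO normoxia (log2 change 1.51, limma adjusted p = 1.79e-05), and 11.25 ± 0.16 in WT hypoxia and 9.62 ± 0.18 in WT normoxia (1.62, adjusted p = 1.03e-05). The part of nerve cells in the Ntrk2 difference was not tested.

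General capillary endothelial markers moved in the direction of Bdnf with hypoxia, and aerocyte markers did not. Of 6 measured general capillary genes, 2 fell in knockout and 4 in wild-type lung, among them Plvap, a component of endothelial fenestrae, by 1.39 and 1.59 log2. The sums were 29205 to 30472 in KO hypoxia and 25603 to 27318 in WT hypoxia, against 42502 to 47351 in KO normoxia and 52016 to 54539 in WT normoxia. Between the genotypes in room air the general capillary sums were lower in KO normoxia, where Bdnf was higher. Of 7 aerocyte capillary genes, 1 rose and 1 fell in knockout and 3 rose and 1 fell in wild-type lung, with sums of 27487 to 29206 in KO hypoxia and 24214 to 27543 in WT hypoxia, against 24748 to 27898 in KO normoxia and 22630 to 22725 in WT normoxia. Of 8 measured vein and artery genes 2 fell and 0 rose in each genotype, with list medians of 0.06 log2 in knockout and 0.24 in wild-type lung. Of 7 platelet genes 0 passed in either genotype. Liver genes fell in 18 of 20 cases in knockout lung and in 0 of 20 in wild-type lung, and with the liver level as a covariate the Bdnf difference of ILMN_3105417 was -0.80 in knockout and -0.41 in wild-type lung. The part of capillary cells in the Bdnf difference was not tested.

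The genes whose profile over the 12 lung arrays was most like that of Ntrk2 (ILMN_2705460) were found by the root mean square difference between log2 values, each centred on its own mean. The 8 nearest named genes of 12570 were Ptx3 (0.52), Retnla (0.64), Spag5 (0.66), Pbk (0.69), Gpr176 (0.73), Fignl1 (0.76), Cdk1 (0.76) and Ccna2 (0.80), and the median over all genes was 1.94. Ptx3 was detected on 8 of 12 arrays, Gpr176 and Cdk1 on 11 and the other 5 on 12, so the distance of Ptx3 rests in part on room-air values not above background. Ptx3, a secreted pattern-recognition molecule, averaged 8.19 ± 0.17 in KO hypoxia and 8.54 ± 0.40 in WT hypoxia, against 5.20 ± 0.24 in KO normoxia and 5.27 ± 0.38 in WT normoxia. Retnla, a secreted resistin-like protein, averaged 14.18 ± 0.28 in KO hypoxia and 15.20 ± 0.49 in WT hypoxia, against 10.67 ± 0.33 in KO normoxia and 10.68 ± 0.30 in WT normoxia. For the other 6 the log2 differences with hypoxia ran from 2.42 to 3.03 in knockout lung and from 2.42 to 2.84 in wild-type lung. Likeness here rests on the step between 6 hypoxic and 6 room-air arrays, and it was chosen from these values, so it carries no test.

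**Figure D5:**
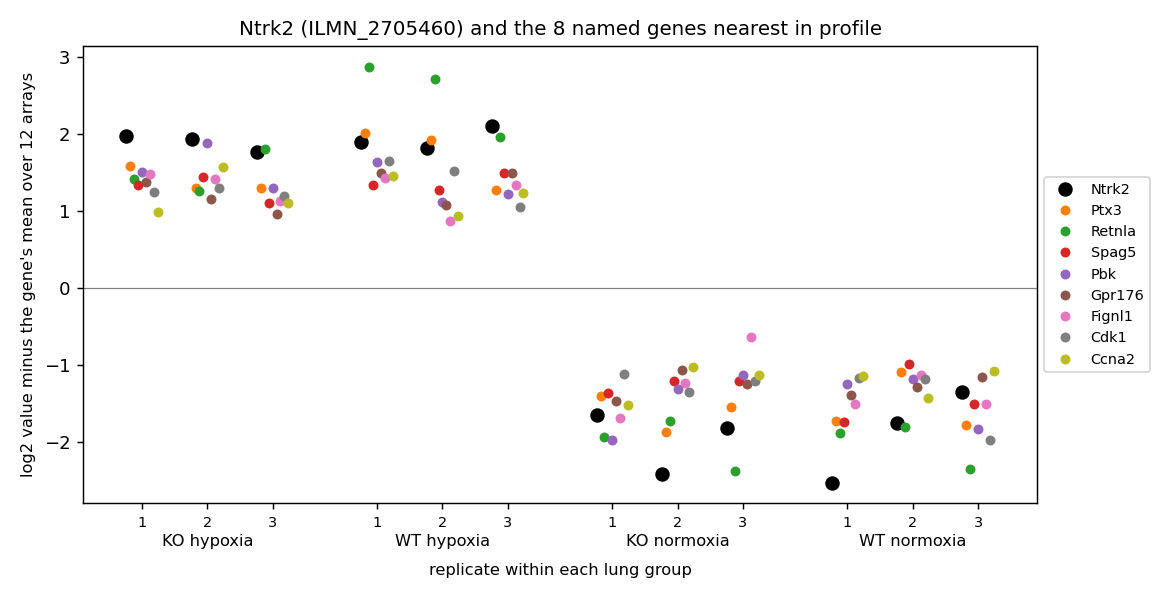
Log2 value of Ntrk2 (black) and its 8 nearest named genes, each minus its own mean over 12 arrays, on each lung array by group. All 9 genes are above their own mean on every hypoxic array and below it on every room-air array, and Retnla is the highest point on replicates 1 and 2 of WT hypoxia and on replicate 3 of KO hypoxia.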

How the data were processed

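Lung RNA of 12 mice and RNA of 6 cell samples were read on Illumina bead arrays, with BeadStudio, per the submitters' processing notes. The authors deposited non-normalized intensity values with their detection p-values, per the file headers. A second table of log2 values deposited by the authors is the signal shifted to a common median in lung (25697 of 25697 probes within 0.02) but differs under 7582 probe names in the PMVEC arrays, 6 of the 11 probes described here among them, so it served as an alternative only. Signals were background corrected from the detection p-values with an offset of 16, quantile normalized and put on the log2 scale with neqc of limma 3.58.1 (R 4.3.3), lung and PMVEC apart. The offset compresses changes of dim probes. Detection (p under 0.05) on 3 or more arrays of the experiment left 17112 and 11947 probes. Linear models (lmFit, eBayes) took in 4 lung groups or 2 cell groups, with Benjamini-Hochberg adjustment over all kept probes at 0.05. Tests are two-sided, and the number of arrays limits their precision. Symbols came from the platform annotation (23978 of 25697 probes had 1 symbol, 1719 none). The procedure was tested on simulated data. The 4 genes and the gene lists were chosen with earlier results of these data known. Named were all probes of the 4 genes, all measured receptors and ligands of the family, up to 4 passing genes with the largest change per further neurotrophin list and up to 2 per cell marker list, and the 8 profiles nearest to Ntrk2. The alternatives were another normalization, an offset of 50, no detection filter, the authors' log2 table, 1 probe per gene, a trended robust variance, the liver level as a covariate, and each array left out.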

Additional observations from a re-analysis of the deposited data

How the results depend on the processing

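Recomputing the 49 values of the 4 genes under the alternatives gave 858 values, of which 829 stayed within the replicate spread or on the same side of the threshold, 21 moved beyond the spread, and 8 lost a call, 0 gained one and 0 turned a called direction among the genotype and rIL-4 comparisons. The hypoxia differences of the 4 genes were judged by size only. Against the threshold, Bdnf ILMN_3105417 was under it in 18 of 19 alternatives for knockout and 5 of 19 for wild-type lung, ILMN_1246842 (over it as reported) in 4 of 18 and 3 of 18, and Ntrk3 ILMN_2632337 (over it as reported) in 1 of 19 for wild-type lung, without replicate 3 of WT normoxia. These counts too come from the comparison that chose the genes, so they are no support for the hypoxia differences and nothing is read from them. The sign of 22 of the 49, none of them passing, turned in at least 1 alternative. The Ntrk2 hypoxia differences were smaller under some settings. ILMN_2705460 gave 3.41 in knockout and 3.39 in wild-type lung with quantile normalization without background correction, 3.48 and 3.43 in the authors' log2 table, and 3.57 in knockout lung with an offset of 50. ILMN_3138904 gave 3.00 and 3.09, 3.05 and 3.13, and 3.14 in the same order. Bdnf ILMN_3105417 gave -0.59 in knockout and -0.29 in wild-type lung in the authors' table, and ILMN_1246842 gave -0.36 there and -0.66 with the liver covariate in knockout lung. Ntrk3 ILMN_2599036 in wild-type lung gave 0.32, 0.28 and 0.31 with quantile normalization, the offset of 50 and the authors' table, and with the liver covariate ILMN_1253641, ILMN_2599036 and ILMN_2632337 gave -0.39, 0.38 and -0.23 in knockout lung. Ngfr in wild-type lung ran from -0.17 to -0.010 over the arrays left out. The room-air Bdnf call (ILMN_3105417) was lost in the authors' table at 0.42 and with the liver covariate at 0.56, and ran from 0.41 to 0.52 over the arrays left out. Calls of other genes were lost with no detection filter (Plau and Mmp9 in wild-type lung, Mmp3 and Egr2 in knockout lung, Sorl1, Egr1 and Artn with rIL-4), in the authors' table (Sorcs2 in both genotypes, Plau and Etv5 in wild-type lung, Egr2 in knockout lung, Irs2 in room air, Artn) and with the trended robust variance (Sorcs2 in knockout lung). For all these shifts the cause was not tested.

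Over all probes, leaving out single arrays gave 959 to 2227 calls for hypoxia in wild-type lung (1694 with all), 690 to 1381 in knockout lung (1260), 411 to 1427 between genotypes in room air (956), 3 to 25 under hypoxia (7), 0 to 166 for the difference of the hypoxia changes (3) and 74 to 102 for rIL-4 (163). The authors' values had 71.2% of calls higher for hypoxia in wild-type lung (60.7% as reported). The liver covariate left 156 for hypoxia in knockout lung (75.6% higher, against 55.9%), 2 between genotypes in room air, 2 under hypoxia and 0 for the difference. For the genotypes under hypoxia and the difference, quantile normalization gave 16 and 72, the offset of 50 gave 17 and 61, no filter 3 and 0, the authors' values 22 and 37, and the trended robust variance 20 and 126; the 166 came without replicate 3 of WT normoxia. For rIL-4, no filter gave 74 (82.4% higher, against 66.9% as reported) and the authors' values gave 315 (92.7% higher), where Bdnf ILMN_3105417 read 0.02 because the PMVEC names differ. No paired analysis was possible because replicate numbers were given in accession order and the labels pair no samples. No source used here gives the chip of each array, so a chip effect was not tested, and dim probes, among them 3 of Ntrk3 and Ngfr, are limited by signal over background.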
